A study of Mus musculus with 6 samples.

Results

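The cytosolic ribosomal protein genes of mouse MA9 leukaemia cells are described here, in cells labelled Gata2 KO and Gata2 f/f under the MDM2 inhibitor Nutlin. They were taken by name: protein-coding genes whose GENCODE M21 symbol is Rpl or Rps followed by p0 to p2, a, or a number with an optional a or x. The rule gave 76 of the 49585 genes in the count table, of which 46 encode proteins of the large subunit and 30 encode proteins of the small subunit. It used names alone and no measured value.

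The study compared Gata2 KO leukaemia cells (genotype Gata2 -/-, called Cre in the sample descriptions) with Gata2 f/f leukaemia cells, with 3 independent samples of each. The labels give bone marrow as the tissue, AML as the line and MA9 leukaemia as the cell type of both groups, and do not name the promoter that drove the Cre. Both groups carried the MA9 leukaemia and both were grown with murine IL-3, IL-6 and SCF and then given 5 uM Nutlin for 18 h. No untreated sample is analysed here, so every value is a level under Nutlin. Polyadenylated RNA was sequenced in paired reads of 90 bases, and counts per gene are given as CPM, the count per 1000000 counts, after scaling each library by its TMM factor (trimmed mean of M-values).

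Most ribosomal proteins are needed in equal numbers in every ribosome. Ribosomal protein genes are expressed at high levels, and their mRNAs are usually made in step. Their mRNAs begin with a C followed by a run of pyrimidines, the 5 prime terminal oligopyrimidine (TOP) tract, through which mTORC1 and LARP1 set how strongly they are translated and how stable they are. Several ribosomal proteins, RPL5 and RPL11 above all, bind MDM2 when ribosome assembly is disturbed and so raise p53, the protein that Nutlin frees from MDM2. GATA2, the deleted factor, is needed by blood stem cells and is a DNA-binding activator of many progenitor genes.

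The start of the TOP tract and a motif read by ETS-family factors were looked for in the RefSeq promoter windows (GRCm38.p6), which run from 250 bases before to 50 bases after each annotated start. Of the 76 genes, 56 had a window, and some had more than 1, which gave 66 windows to set against 32851 for all genes. A C followed by at least 4 C or T, on the coding strand and beginning exactly at the annotated start, was found in 19.7% of the ribosomal protein windows and in 2.51% of all windows. Beginning within 5 bases of the start it was found in 43.9%, against 18.3% of all windows. These counts include matches inside a longer run of C and T; where the base before the C had to be A or G, a setting added after seeing the data, the second pair was 24.2% against 12.4%. The run CCGGAAG on either strand was found in 36.4% of ribosomal protein windows against 8.86% of all, and AAGATGG, also on either strand and read by YY1, in 16.7% against 6.34%. TATAAA on either strand went the other way, at 9.09% against 13.6%. The tract, CCGGAAG and AAGATGG can overlap each other and were counted separately; a match is a run of letters and says nothing on binding or on where transcription began in these cells.

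Windows are shown in sets, each from 60 bases before the annotated start to 20 bases into the transcript, 5′ to 3′ on the coding strand, with capitals for the match to the tract, from its first C within 5 bases of the start, and for CCGGAAG. The first holds Rpl31 and Rpl28, among the members with the largest values for Gata2 KO over Gata2 f/f, and Rps21, which had the lowest value. Their positions are Rpl31, chr1:39367791-39367870, plus strand; Rpl28, chr7:4792905-4792984, plus strand; and Rps21, chr2:180257319-180257398, plus strand.
Rpl31: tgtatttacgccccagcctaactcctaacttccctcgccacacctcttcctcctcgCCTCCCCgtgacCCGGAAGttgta
Rpl28: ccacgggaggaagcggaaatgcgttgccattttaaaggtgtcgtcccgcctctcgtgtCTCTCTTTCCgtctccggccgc
Rps21: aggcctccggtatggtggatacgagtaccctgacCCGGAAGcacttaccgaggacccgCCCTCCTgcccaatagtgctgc
A match to the tract begins within 5 bases of the start in all 3, and CCGGAAG is present in Rpl31 and Rps21, the members at the 2 ends of the range of fold changes. Rps21 has 2 windows. For a gene with several windows, a window with a match to the tract was shown where there was any.

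The next were chosen because they show the tract plainly. They belong to Rps6, the S6 kinase substrate, to Rps10 and to Rpl35, at Rps6, chr4:86857348-86857427, minus strand; Rps10, chr17:27635225-27635304, minus strand; and Rpl35, chr2:39005112-39005191, minus strand.
Rps6: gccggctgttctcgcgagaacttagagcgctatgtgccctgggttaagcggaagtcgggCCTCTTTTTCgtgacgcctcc
Rps10: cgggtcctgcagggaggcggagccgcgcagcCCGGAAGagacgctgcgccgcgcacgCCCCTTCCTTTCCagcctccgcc
Rpl35: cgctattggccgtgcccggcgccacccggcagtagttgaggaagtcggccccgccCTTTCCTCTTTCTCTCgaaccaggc
The unbroken runs of C and T are 10 bases long in Rps6, 13 in Rps10 and 18 in Rpl35. In Rpl35 the run begins 7 bases before the start, so its first bases stand in lower case.

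The last are Rplp0, the ribosomal protein gene of highest level per kilobase in these cells, and Rpsa, the laminin-receptor protein of the small subunit, at Rplp0, chr5:115559407-115559486, plus strand and Rpsa, chr9:120127706-120127785, plus strand.
Rplp0: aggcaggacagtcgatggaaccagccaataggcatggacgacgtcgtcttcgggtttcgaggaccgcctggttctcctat
Rpsa: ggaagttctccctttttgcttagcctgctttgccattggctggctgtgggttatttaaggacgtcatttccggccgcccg
Neither holds a match to the tract within 5 bases of the annotated start, nor CCGGAAG, in the stretch shown.

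Libraries held 17138687 to 26440960 counts. Gata2, the deleted gene, had 5.44, 43.3 and 4.33 CPM in the libraries labelled KO 1, KO 2 and KO 3, against 33.6, 22.3 and 18.4 CPM in f/f 1, 2 and 3. The library labelled KO 2 therefore goes against its label, and its level was above that of all 3 f/f libraries. The log2 fold change of Gata2 was -0.49 ± 0.86 (SE, n = 3 each, edgeR, adjusted p = 1.00). Without the library labelled KO 2, and with the replicate number as a block, it was -2.36 (edgeR, adjusted p = 0.00356). The library left out is the one of highest Gata2, so this value is no independent test of the deletion. With the block f/f 2 had no partner, so the value rests on numbers 1 and 3. Markers of maturing myeloid cells also differed between libraries: 11 neutrophil markers summed to 1811, 612 and 3222 CPM in KO 1, 2 and 3, against 287, 579 and 1902 CPM in f/f 1, 2 and 3. The 12 monocyte and macrophage markers summed to 704, 569 and 2855 CPM in the same KO libraries, against 257, 256 and 1881 CPM in f/f. In the genotype fit 9 of 10 tested neutrophil markers and 11 of 12 monocyte markers had a positive fold change. The share over all tested genes was 52.5%. By edgeR 0 of these markers were called, as were 0% of all tested genes, and none was at 0 counts throughout. DESeq2 with the replicate block called 5 and 3 of them, against 1.75% of all genes. Both libraries numbered 3 were the highest of their group for both lists. A list of 9 leukaemia and progenitor markers holds Hoxa9 and Meis1 and also granule protein genes. It summed to 5933, 3572 and 3373 CPM in KO, against 3141, 4560 and 2657 CPM in f/f, and 6 of 9 were positive. Hoxa9 ran from 168 to 231 CPM over the 6 libraries, a small part of these sums. Genes that carry ribosomal RNA reads took 0.25%, 4.56% and 0.79% of counts in KO, against 5.34%, 0.98% and 0.23% in f/f. The part of these cells and reads in the ribosomal protein values was not tested.

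The ribosomal protein genes took 5.49%, 7.55% and 8.88% of all counts in KO 1, 2 and 3, against 6.33%, 7.94% and 6.80% in f/f 1, 2 and 3. On the scaled values, their summed level was 53040, 76390 and 98687 CPM in the KO libraries, against 61877, 75118 and 68143 CPM in the f/f libraries. The lowest and the highest of the 6 libraries were both labelled KO, so the KO range enclosed the f/f range. KO 3 stood 1.86-fold above KO 1, whereas the highest f/f library stood 1.21-fold above the lowest. The log2 ratio of the group means was 0.15. Fewer cells of a type and less of these mRNAs per cell cannot be told apart in such bulk RNA.

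**Figure D1:**
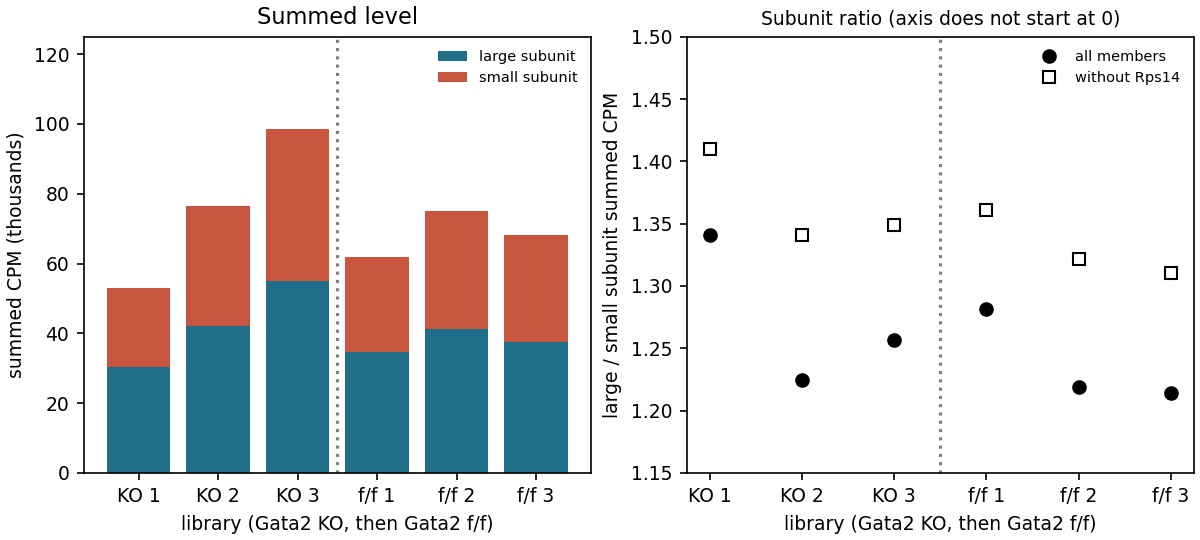
Left, summed CPM of the 46 large-subunit and 30 small-subunit genes, stacked, in each library; right, the ratio of the 2 sums with all members (filled) and without Rps14 (open). KO 1 and KO 3 are the lowest and highest bars, at 53040 and 98687 CPM, and the f/f bars lie between them.

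The plot of summed levels shows both subunits moving together. The large-subunit genes summed to 30385, 42050 and 54956 CPM in KO 1, 2 and 3, against 34760, 41265 and 37363 CPM in f/f. The small-subunit genes summed to 22655, 34340 and 43731 CPM in KO, against 27117, 33853 and 30780 CPM in f/f. The ratio of large to small was 1.341, 1.225 and 1.257 in KO and 1.282, 1.219 and 1.214 in f/f, a difference of means of 0.036 with overlapping groups. In both genotypes the library numbered 1 had the highest ratio. Without Rps14, the ratios were 1.410, 1.341 and 1.349 in KO and 1.361, 1.322 and 1.311 in f/f.

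No ribosomal protein gene passed the genotype test. Of the 76, 75 had enough counts to be tested (45 large-subunit, 30 small-subunit), and 0 had an adjusted p under 0.05 by edgeR's quasi-likelihood test, where 0% of all 13744 tested genes did; the smallest adjusted p of a member was 1.00. None had an unadjusted p under 0.05, against 1.24% of all tested genes, and DESeq2 likewise called 0 members, against 0.0513% of all genes, or 1.75% with the replicate number as a block. For 68 of the 75 the fold change was smaller than its own standard error. There was no member whose 3 KO libraries all lay above, or all lay below, the 3 f/f libraries, an arrangement seen in 2.64% and 2.78% of all tested genes.

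The fold changes of the members were more often positive than negative. The median log2 fold change was 0.12 for the members and 0.02 for all tested genes, and 61 of 75 members had a positive value, against 52.5% of all tested genes. For large-subunit genes the median was 0.13 with 40 of 45 positive, and for small-subunit genes 0.12 with 21 of 30 positive. These counts rest on KO 3: without it, 10 of 75 members were positive and the median was -0.12. Without KO 1, 70 of 75 were positive and the median was 0.31. Leaving out the library labelled KO 2 gave 50 of 75 and a median of 0.10. With the replicate number also as a block it gave 58 of 75 and 0.13. With library totals in place of TMM factors, 45 of 75 were positive and the median was 0.03. The median of all tested genes was then -0.05. Members minus all genes was 0.08, against 0.10 with TMM factors. This scaling moved genes in general, which bears on each count with library totals given for the lists below.

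**Figure D2:**
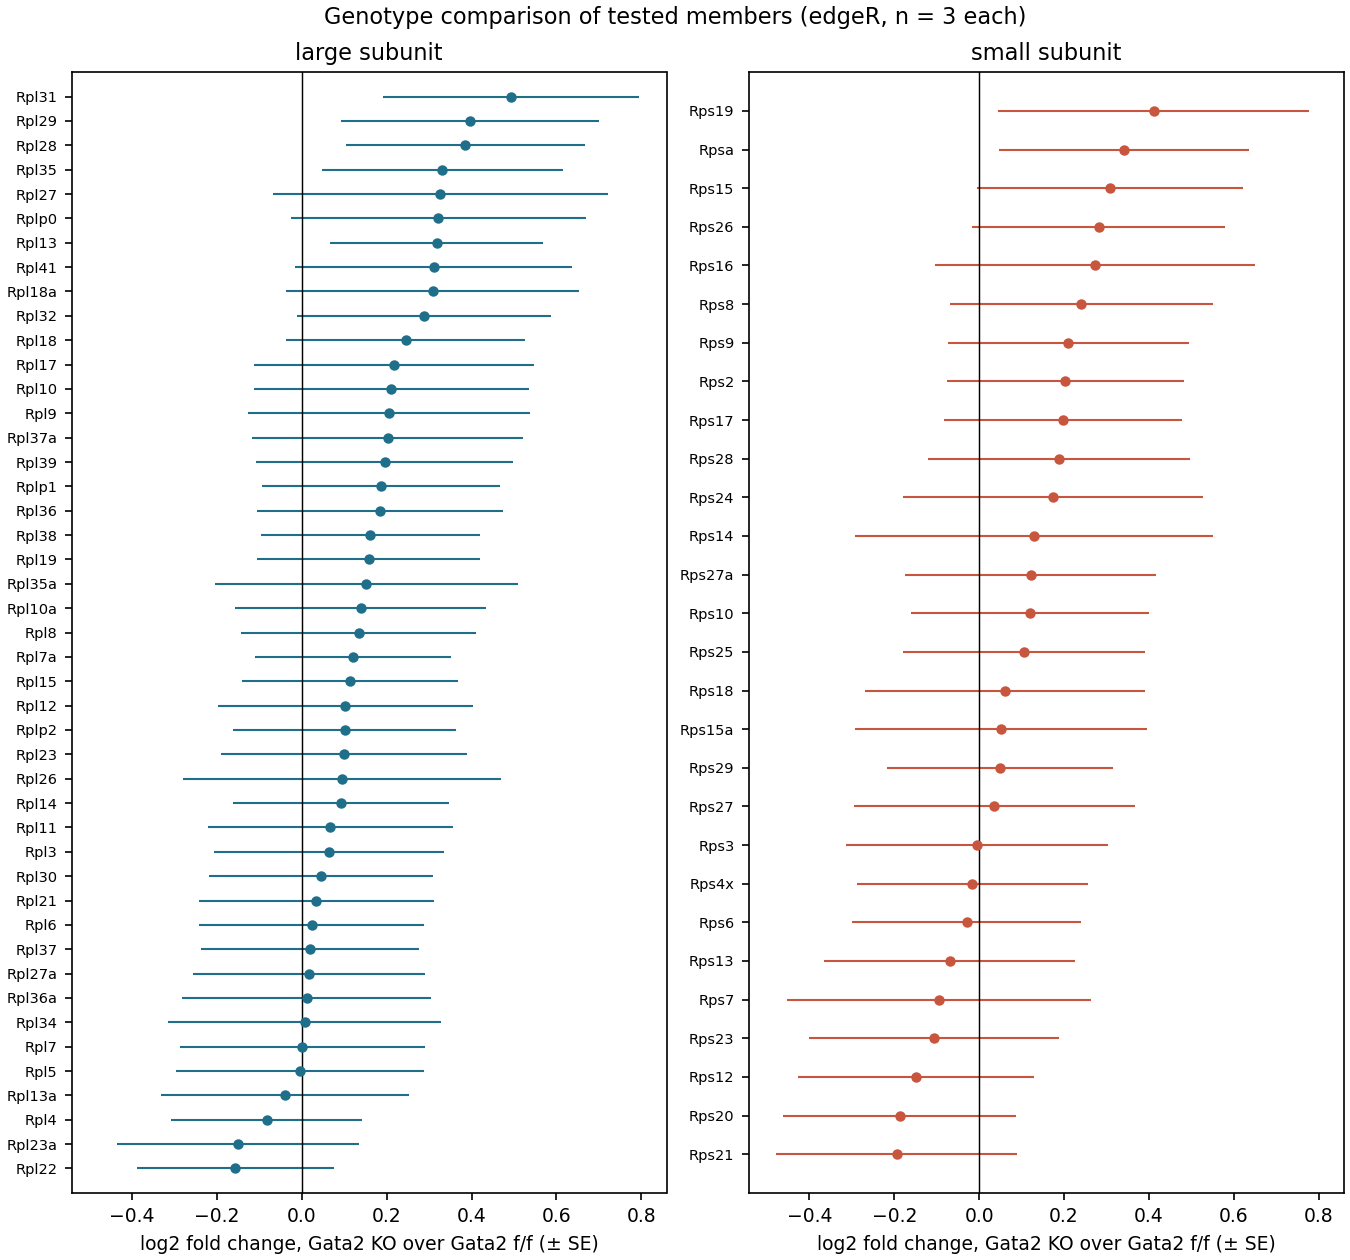
Log2 fold change, KO over f/f, with its standard error (edgeR, 3 libraries each) for tested large-subunit (left) and small-subunit (right) genes, ordered by value. Values run from -0.19 for Rps21 to 0.49 for Rpl31, and most bars cross 0.

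The plot of fold changes has Rpl31, a large-subunit protein at the exit of the peptide tunnel, at its top. It had 529, 563 and 895 CPM in KO 1, 2 and 3, against 360, 496 and 556 CPM in f/f 1, 2 and 3. Its groups overlapped, and the log2 fold change was 0.49 ± 0.30 (SE). Within numbers 1, 2 and 3 the KO library was higher by 0.56, 0.18 and 0.69 on the log2 scale, so its 3 comparisons had 1 direction. With the replicate number as a block the change was 0.48 ± 0.17 (unadjusted p = 0.028, adjusted p = 0.43). The block left 0 members called, where 0% of all genes were, and 2 members, Rpl31 among them, with an unadjusted p under 0.05, against 10.7% of all tested genes.

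Rpl29, a basic protein of the large subunit, had 555, 659 and 1114 CPM in KO, against 579, 591 and 599 CPM in f/f. Its f/f libraries were close together while KO 3 stood far above the other two KO libraries, and the log2 fold change was 0.40 ± 0.30. Rpl28 had 1074, 1336 and 1894 CPM in KO against 961, 1170 and 1164 CPM in f/f, with a log2 fold change of 0.39 ± 0.28. Rpl13 had 1159, 1278 and 1690 CPM in KO against 977, 1115 and 1218 CPM in f/f, a change of 0.32 ± 0.25. These 3 and Rpl31 had the smallest p-values of all members, and in each the groups overlapped.

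At the other end stood Rps21, with 240, 378 and 397 CPM in KO against 348, 479 and 334 CPM in f/f (-0.19 ± 0.28). Rps20, which contacts the small-subunit head and also binds MDM2, had 399, 575 and 649 CPM in KO against 664, 688 and 497 CPM in f/f (-0.19 ± 0.27). Rpl22, a large-subunit protein whose loss has been tied to T-lineage leukaemia, had 250, 346 and 324 CPM in KO against 312, 387 and 327 CPM in f/f (-0.16 ± 0.23). Of the 75 members it alone was lower in KO within all 3 numbers, by 0.32, 0.16 and 0.01, against 17.7% of all tested genes. Rpl23a (-0.15), Rps12 (-0.15) and Rps23 (-0.11) were the other members of most negative value, each smaller in size than its standard error.

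KO 1 was the lowest library and KO 3 the highest for most members. Each member was centred on its mean log2 CPM over the 6 libraries. The median departure from that mean was -0.41, 0.09 and 0.45 in KO 1, 2 and 3, and -0.15, 0.11 and -0.08 in f/f 1, 2 and 3. KO 1 was the lowest library for 61 of 75 members, against 15.7% of all tested genes, and KO 3 was the highest for 64, against 30.7% of all tested genes. Both held at once for 54 of 75, against 6.4% of all. The remaining lowest values fell in f/f 1 (9 members) and f/f 3 (5 members), and the remaining highest values in KO 2 (2), f/f 1 (2) and f/f 2 (7).

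**Figure D3:**
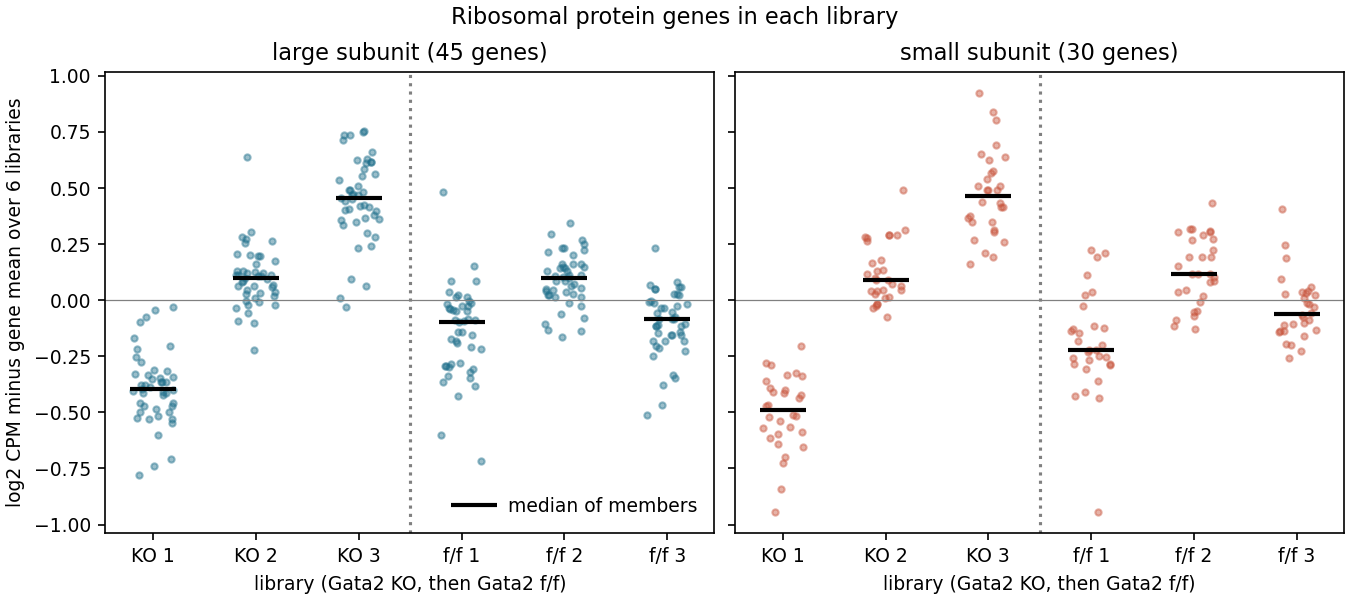
Log2 CPM of each tested member minus its mean over the 6 libraries, for large-subunit (left) and small-subunit (right) genes; points are genes, spread sideways for sight only, and bars are medians. The points lie mostly below 0 in KO 1 (overall median -0.41) and above 0 in KO 3 (overall median 0.45).

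The plot of centred levels shows KO 1 lowest and KO 3 highest by median in both subunits. In large-subunit genes the medians were -0.40, 0.10 and 0.45 in KO 1, 2 and 3 and -0.10, 0.10 and -0.09 in f/f 1, 2 and 3. In small-subunit genes they were -0.49, 0.09 and 0.46 in KO and -0.22, 0.12 and -0.06 in f/f. Libraries of the same number deviated together across all tested genes, so the genotypes were also compared within each number. For number 1 this pairing is less clear, as f/f 1 had r = 0.294 with KO 1 and 0.455 with KO 2. Over the members alone the 2 values were 0.59 and -0.265. In number 1 the median difference of members, KO minus f/f, was -0.26, and KO was higher for 9 of 75. In number 2 it was -0.01 with KO higher for 34 of 75, and in number 3 it was 0.54 with KO higher for 74 of 75. Over all tested genes the 3 medians were 0.03, 0.03 and -0.01. The value for number 2 rests on the library labelled KO 2, whose Gata2 level of 43.3 CPM went against its label. Each number holds 1 library of each genotype, so the contrast between numbers 1 and 3 was not tested.

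**Figure D4:**
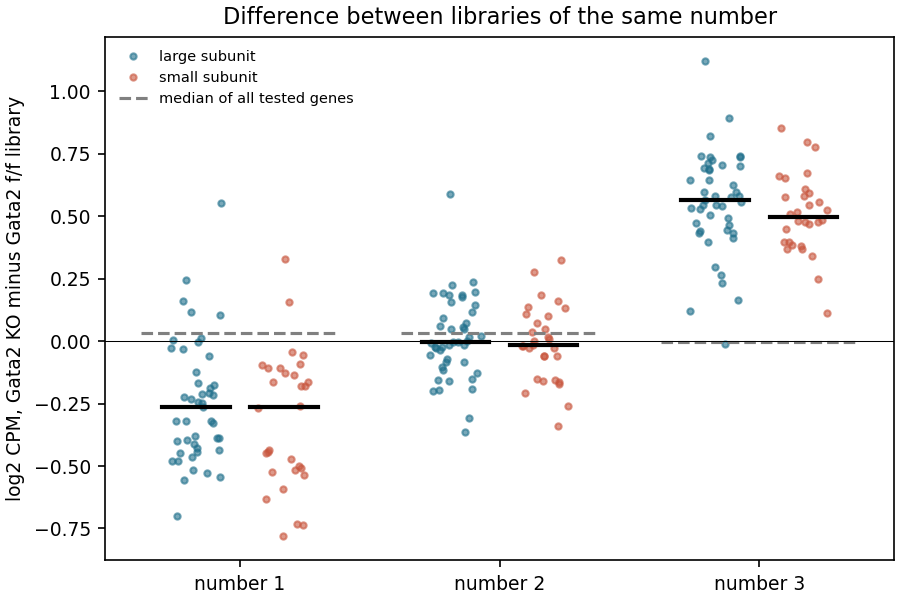
Difference in log2 CPM, Gata2 KO library minus Gata2 f/f library of the same number, for each tested member (points, by subunit, spread sideways for sight only); black bars are medians of members and dashed lines medians of all tested genes. Members lie mostly below 0 in number 1 (median -0.26), around 0 in number 2 (-0.01) and above 0 in number 3 (0.54).

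The plot of same-number differences shows 9 members higher in KO in all 3 numbers, against 20.7% of all tested genes, among them Rpl31, Rpl27, Rpl13, Rplp0, Rpsa and Rpl28. Rplp0, the scaffold of the acidic stalk that recruits elongation factors, had 2998, 4179 and 6665 CPM in KO 1, 2 and 3, against 2970, 4038 and 4069 CPM in f/f 1, 2 and 3. Its same-number differences were 0.01, 0.05 and 0.71, so number 3 carried nearly all of the change of 0.32 ± 0.35. Rpsa had 2630, 3110 and 4664 CPM in KO against 2360, 2882 and 2966 CPM in f/f, with differences of 0.16, 0.11 and 0.65. Rpl22 was the only member that was not higher in KO in number 3.

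The other stalk proteins, Rplp1 and Rplp2, pair on the base that Rplp0 gives. Rplp1 had 1374, 1879 and 2360 CPM in KO, against 1405, 1816 and 1712 CPM in f/f (log2 fold change 0.19 ± 0.28). Rplp2 had 349, 473 and 605 CPM in KO, against 438, 473 and 418 CPM in f/f (0.10 ± 0.26). All 3 stalk genes were positive and 0 were called. Without KO 3, 0 of 3 were positive.

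The members that bind MDM2 or form the 5S particle are the ones tied most closely to Nutlin's target. Rpl5, a 5S RNA partner, had 753, 1089 and 1404 CPM in KO 1, 2 and 3, against 1051, 1250 and 954 CPM in f/f 1, 2 and 3, with a log2 fold change of -0.0042 ± 0.29. Its same-number differences were -0.48, -0.20 and 0.56. Rpl11, the other 5S RNA partner, had 742, 1054 and 1233 CPM in KO, against 978, 1151 and 761 CPM in f/f (0.07 ± 0.29). Rpl23 had 649, 826 and 1245 CPM in KO, against 809, 874 and 854 CPM in f/f (0.10 ± 0.29). For this list of 12, 8 were positive, the median was 0.03 and 0 were called. With library totals alone 4 of 12 were positive, and with the replicate block 5 of 12. Leaving out 1 library gave 11 of 12 without KO 1 or f/f 2, 5 without f/f 1, 4 without KO 2, 3 without f/f 3 and 0 without KO 3.

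Genes mutated in Diamond-Blackfan anaemia, an inherited failure of red cell production known from patients, were taken as a list of 19. Of these, 17 of 19 were positive with a median of 0.15 and 0 called; 12 of 19 were positive with library totals alone and 4 of 19 without KO 3. Rps19, the first gene tied to that disease, had 540, 868 and 1384 CPM in KO against 577, 716 and 806 CPM in f/f (0.41 ± 0.37). Rps7 had 673, 1474 and 1487 CPM in KO against 1016, 1490 and 1375 CPM in f/f (-0.09 ± 0.36). Rps27 had 153, 305 and 324 CPM in KO against 220, 311 and 232 CPM in f/f (0.04 ± 0.33). All 3 had KO 1 as their lowest library.

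Several members departed from the common pattern. For each member, its departure from the members' median in each library was taken, and the spread of these 6 values had a median SD of 0.15 over the 75 tested members. An SD over 0.25 was seen in 9 of 75, and among these Rpl23a, Rpl27, Rps14, Rpl4 and Rpl13a were singled out after their values were seen.

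Rpl27 had 574, 1356 and 1147 CPM in KO, against 529, 902 and 1022 CPM in f/f, with the libraries numbered 1 lowest in both groups. Rps14, the gene lost in the human 5q- syndrome, had 1106, 2986 and 2987 CPM in KO, against 1571, 2630 and 2270 CPM in f/f. The library labelled KO 2 stood 2.70-fold above KO 1 for Rps14, and number 1 was again lowest in both groups. Rpl4 had 1686, 1812 and 1767 CPM in KO, against 2002, 1949 and 1626 CPM in f/f, with number 1 lowest in KO but highest in f/f. It was flat over the KO libraries, in which most members varied. Rpl23a had 44.9, 39.4 and 49.1 CPM in KO, against 64.2, 50.8 and 33.2 CPM in f/f.

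**Figure D5:**
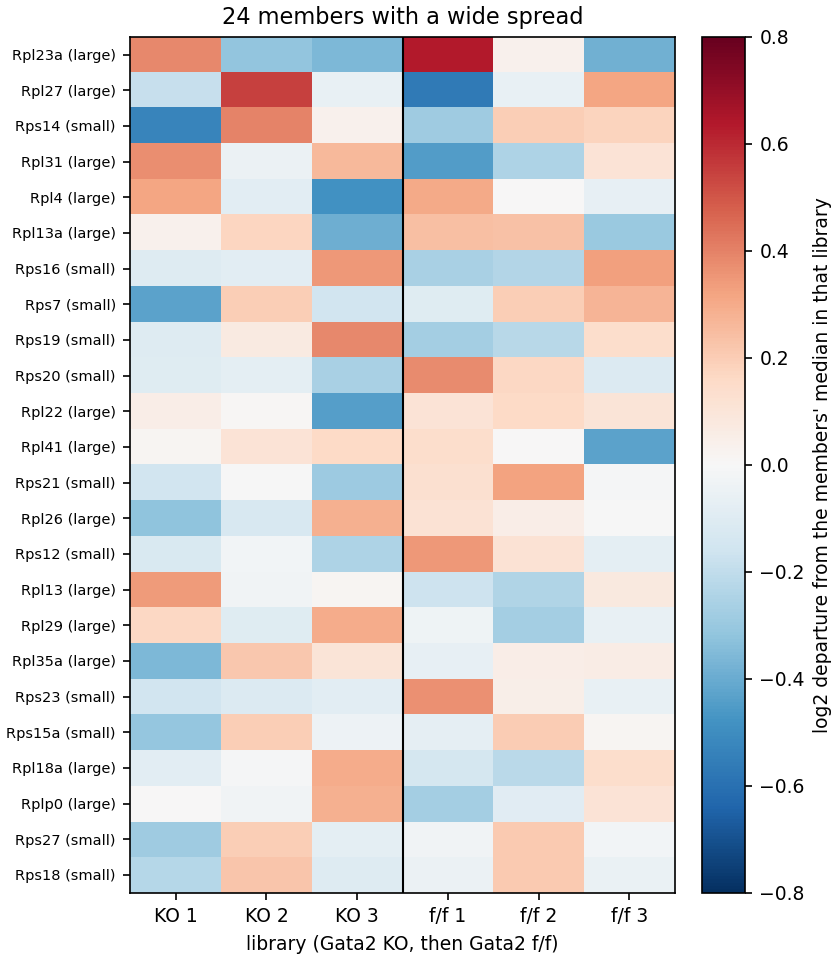
Departure of log2 CPM from the members' median in the same library, for 24 members of wide spread (rows, with subunit), in the 3 Gata2 KO and 3 Gata2 f/f libraries (columns); red is above and blue below. Rpl23a, at the top, is above the median in the libraries numbered 1 and below it in those labelled KO 2, KO 3 and f/f 3.

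The plot of departures led to a comparison that was chosen after seeing the data: a test of the replicate number, with genotype in the model, by edgeR. Of the 75 tested members, 1 had an adjusted p under 0.05, against 9.09% of all tested genes. Unadjusted, 8 members had p under 0.05, Rpl27, Rps14 and Rps16 among them, against 30.7% of all tested genes. The members' share was below that of all genes on both counts.

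Levels per kilobase can be set between genes, here as mean CPM over the 6 libraries divided by the median length of a gene's coding transcripts. Rplp0 stood highest at 4863 CPM per kb, then Rps2 at 3833, Rps14 at 3767, Rplp1 at 3522, Rpl18 at 2524 and Rps3 at 2329 CPM per kb. The lowest were Rpl24 at 0.34, Rpl13a at 43.5, Rpl23a at 83.8, Rps20 at 156, Rpl22 at 158 and Rpl35 at 227 CPM per kb. For Rps20 the transcripts in the annotation have a median length of 3706 bases, which lowers its value per kilobase; its CPM of 399 to 688 was ordinary among members.

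Rpl24 was close to unread: it had 0, 4 and 14 counts in KO 1, 2 and 3, against 8, 1 and 2 counts in f/f, and was not tested. Its exons (chromosome 16, 55966275 to 55971435, GRCm38, plus strand) overlap those of Gm28037 on the same strand, a gene listed with 0 counts in all 6 libraries. Of the 90-base windows in its longest coding transcript, 19.6% occur in no other annotated gene. Rpl13a, at 16.2 to 26.8 CPM over the 6 libraries, likewise overlaps Gm45713 on the same strand, which had 0 counts throughout, and 44.4% of its windows are its own. For Rpl23a, which overlaps Tlcd1 on the opposite strand, 19.5% of windows are its own. Processed pseudogenes that share sequence with these genes had counts. Gm11478, which shares sequence with Rpl13a, had 30.5 to 60.4 CPM, above Rpl13a in each library. Gm9385, which shares sequence with Rpl24, had 4.35 to 12.3 CPM, against 0 to 0.59 CPM for Rpl24. Gm10335, which shares sequence with Rpl23a, had 5.78 to 9.70 CPM, below Rpl23a in each library. Reads shared with another gene can be dropped or split in counting, so the levels of Rpl24, Rpl13a and Rpl23a are uncertain. The part of such reads in their low levels was not tested. The same uncertainty holds for members of high level, such as Rpl10, with 15.4% of windows its own and a mean of 1170 CPM. Rps6 had 16.2% and a mean of 1188 CPM.

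Sequence shared with other genes was common among members. Rps3 had 100% of windows unique, while 28 members had under 50%, and the rank correlation of unique share with CPM per kb was 0.036 over the 75 tested members, which share all 6 libraries. Rpl5 had 8.33% unique windows and 753 CPM per kb. The 280 genes named as pseudogenes (-ps) of ribosomal protein genes held 0.188% to 0.295% of counts in the 6 libraries. This share leaves out pseudogenes under other names, such as Gm11478, and so is not the whole pseudogene share. Exons of 24 members also contain a small nucleolar RNA gene in the annotation. The members lie on 19 chromosomes, with 14 on chromosome 7, 4 on X and 0 on chromosome 19.

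Rps3a1, Fau and Rack1 are ribosomal proteins that the naming rule leaves out. Fau, which encodes a small-subunit protein fused to a ubiquitin-like part, had 544, 765 and 1373 CPM in KO, against 533, 658 and 752 CPM in f/f (0.46 ± 0.37). Rps3a1 had 846, 1089 and 990 CPM in KO, against 984, 1330 and 1053 CPM in f/f (-0.20 ± 0.24). Rack1, a signalling scaffold on the small subunit, had a log2 fold change of 0.07 ± 0.27.

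Of 9 paralogues of members, 7 could be tested and 6 of 7 were positive, none called. With library totals alone and with the replicate block 4 of 7 were positive, as without KO 2 or f/f 3. Without f/f 1, 3 of 7 were positive and the median was -0.04, against 0.08 with all 6 libraries. Rpl39l, a paralogue used in male germ cells in mice, was the one most unlike the members. It had 0.43, 56.1 and 0.13 CPM in KO 1, 2 and 3, against 18.5, 35.4 and 0.60 CPM in f/f 1, 2 and 3. Its level varied widely within both groups, and the KO range enclosed the f/f range. The library labelled KO 2, which also had the high Gata2, was the highest. The log2 fold change of Rpl39l was 0.05 ± 1.93, and with the replicate block it was -1.87 (adjusted p = 0.59 by edgeR). Without the library labelled KO 2 and with the block it was -4.54 (adjusted p = 0.00356 by edgeR). That fit leaves out the highest library and rests on numbers 1 and 3. Their counts were 9 in KO 1 against 324 in f/f 1, and 3 in KO 3 against 15 in f/f 3, close to unread. Rpl22l1, the paralogue that stands in for Rpl22, had 28.3, 47.8 and 43.2 CPM in KO, against 52.6, 55.8 and 37.2 CPM in f/f (-0.29 ± 0.28). Rps27l, a paralogue of Rps27 that p53 induces, had 188, 351 and 427 CPM in KO, against 278, 366 and 280 CPM in f/f (0.06 ± 0.33). Rpl3l, Rpl36al, Rps27rt and Rpl7l1 had log2 fold changes of 0.69, 0.26, 0.14 and 0.08. Rpl10l was listed at 0 in all 6 libraries and Rps4l was below the filter.

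Other mRNAs with a TOP tract, chiefly translation factors, are set beside the members. Of 25, 9 were positive and the median was -0.10, none called. Eef1a1, the elongation factor that delivers aminoacyl-tRNA, had 6332, 9527 and 7639 CPM in KO, against 8575, 11156 and 10064 CPM in f/f (-0.34 ± 0.27). Npm1, a nucleolar chaperone on this list and on the next, had 1278, 2256 and 1121 CPM in KO, against 2264, 2585 and 1550 CPM in f/f (-0.46 ± 0.35). Vim went the other way at 0.54 ± 0.41. With library totals alone 7 of 25 were positive. The direction of the median turned when KO 1 or f/f 2 was left out. Without KO 1, 14 of 25 were positive with a median of 0.02, and without f/f 2, 13 of 25 with a median of 0.0067.

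Ribosome assembly factors make rRNA and fit the proteins on to it. Of 41 tested, 8 were positive, the median was -0.22 and none was called. Summed, they had 7931, 9634 and 5496 CPM in KO 1, 2 and 3, against 10439, 10105 and 6684 CPM in f/f 1, 2 and 3. The libraries numbered 3 were lowest in both groups, and KO 3, the highest library for the ribosomal proteins, was the lowest of all 6 for their assembly factors. Heatr3, which carries RPL5 into the nucleus, had 55.5, 64.4 and 37.7 CPM in KO, against 84.2, 87.9 and 59.3 CPM in f/f (-0.55 ± 0.28, unadjusted p = 0.088, the smallest of the list). Nmd3 was at -0.42 ± 0.28 and Gnl3 at -0.49 ± 0.35. Between numbers, 7 of the 41 were called, against 9.09% of all tested genes. Without KO 3, 20 of 41 were positive and the median was -0.00085. The count was 13 without f/f 1, 5 without f/f 3 and 4 without KO 2, each with a negative median.

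Genes of mTORC1 and of TOP mRNA control had 11 of 18 positive values and a median of 0.01, none called; with library totals alone 7 of 18 were positive, and with the replicate block 8 of 18 (median -0.04). Without KO 1, 7 of 18 were positive (median -0.18), without f/f 2, 8 of 18 (median -0.02), and without f/f 3, 6 of 18 (median -0.09). Eif4ebp1, the repressor of cap-dependent translation that mTORC1 inactivates, had 132, 174 and 290 CPM in KO, against 128, 130 and 149 CPM in f/f (0.55 ± 0.32). Eif4e, its target, was at -0.36 ± 0.25, and Rps6kb2, a kinase of Rps6, at 0.55 ± 0.26. Rps6 itself had 875, 1196 and 1457 CPM in KO, against 1194, 1340 and 1067 CPM in f/f (-0.03 ± 0.27). Mitochondrial ribosomal protein genes, a list added after seeing the data, had 49 of 77 positive values with a median of 0.06 and 0 called. Without KO 3 the count was 28 of 77 (median -0.08), without f/f 3 it was 34 (median -0.04), and with library totals alone 35 (median -0.02). They summed to 3647, 4734 and 5255 CPM in KO, against 4246, 4745 and 3955 CPM in f/f, with KO 3 again highest and f/f 3 second lowest after KO 1.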

How the data were processed

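The authors deposited raw counts for each gene in a single table with a column for every sample. Tools named in the submitters' processing notes are HTSeq, kallisto and DESeq2, with build mm10 and no role or version; which tool counted, and whether strand was used, is not given in the sources used here. Of 49585 identifiers, 49326 matched GENCODE M21 without version.

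Genes were filtered with filterByExpr (minimum count 10; 13744 kept) and tested with edgeR 4.0.16 (TMM, quasi-likelihood, Benjamini-Hochberg over all tested genes, threshold 0.05) in R 4.3.3. DESeq2 1.42.0 and limma 3.58.1 were alternatives. The log2 CPM values computed from the deposited counts use a prior count of 2. Standard errors are the fold change over the root of F. The tests were also run on simulated counts with larger changes than those of the members, so that check does not measure power for the members.

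Same-numbered libraries deviated together across genes (r = 0.294, 0.555 and 0.653 in numbers 1, 2 and 3), so the numbers, which the titles give without saying what they mark, were treated as pairs and a fit with the number as a block was set beside the unblocked one. For f/f 1 and KO 2 r was 0.455. The labels call the samples independent but do not say what was separate. No pair of libraries agreed within sampling noise.

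Genes are named by rule: Gata2; the members of highest and lowest CPM per kb, of largest fold change in each direction and of smallest p; a set of members with known roles; the paralogues and ribosomal proteins outside the naming rule; and up to 4 of smallest p in each other list. The members, lists and rules were chosen with earlier results of these data known. Promoter windows are from RefSeq (GRCm38.p6). Results on some genes are not reported here.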

Additional observations from a re-analysis of the deposited data

How the results depend on the processing

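Members called stayed at 0 under each of the alternatives run. Calls over all genes were 0 in the unblocked edgeR fit and 7 with DESeq2, 222 with DESeq2 and the replicate block, and 54 without the library labelled KO 2 with the replicate block. The cause was not tested. The median log2 fold change of members was -0.12 to 0.31 when libraries were left out in turn, 0.09 with the replicate block and -0.14 without both libraries numbered 3. Of 1080 values of 54 named genes, 82 changed sign, in 28 genes; every one of these was uncalled except Rpl39l without the library labelled KO 2. The number of libraries, 3 in each group, limits the precision. With DESeq2 and the replicate block the log2 fold change was -0.041 for Rps27, -2.30 for Rpl39l and -0.026 for Rps27l. With edgeR and the replicate block the log2 fold change was -0.022 for Rps27, -1.87 for Rpl39l and -0.0065 for Rps27l. With library totals alone the log2 fold change was -0.029 for Rpl11, -0.064 for Rps27, -0.017 for Rack1, -0.026 for Rpl39l and -0.040 for Rps27l. With limma voom the log2 fold change was -0.022 for Rps27, -2.34 for Rpl39l and -0.0064 for Rps27l. With no filter on low counts the log2 fold change was -0.024 for Rps27. Without both libraries numbered 3 the log2 fold change was -0.0032 for Rps2, -0.067 for Rps14, -0.018 for Rplp1, -0.28 for Rpl11, -0.18 for Rplp2, -0.24 for Rps27, -0.14 for Rps27a, -0.091 for Rpl10, -0.22 for Rpl23, -0.12 for Rack1, -0.0040 for Rpl7l1, -0.29 for Rps27l and -0.13 for Rps25. Without the library labelled KO 2, with the replicate block the log2 fold change was -0.058 for Rps14, 0.021 for Rpl23a, 0.035 for Rpl5, -0.022 for Rps27, 0.038 for Rps4x and -4.54 for Rpl39l. With libraries left out in turn, it ran from -0.15 to 0.20 for Rps3, -0.25 to 0.14 for Rpl13a, -0.32 to 0.023 for Rps12, -0.37 to 0.082 for Rps23, -0.26 to 0.18 for Rpl5, -0.23 to 0.12 for Rps6, -0.24 to 0.13 for Rps4x and -0.29 to 0.17 for Rps7. It ran from -0.093 to 0.45 for Rps14, -0.17 to 0.28 for Rps27, -6.03 to 0.99 for Rpl39l, -0.21 to 0.31 for Rps27l, -0.034 to 0.28 for Rps25, -0.061 to 0.53 for Rplp0, -0.046 to 0.35 for Rps2 and -0.036 to 0.34 for Rplp1. It ran from -0.0093 to 0.66 for Rps19, -0.12 to 0.22 for Rpl11, -0.13 to 0.26 for Rplp2, -0.17 to 0.30 for Rps27a, -0.16 to 0.40 for Rpl10, -0.22 to 0.27 for Rpl23 and -0.0047 to 0.70 for Fau. It ran from -0.13 to 0.20 for Rack1, -0.042 to 0.46 for Rps26, -0.41 to 0.030 for Rpl23a, -0.035 to 0.19 for Rpl7l1 and -0.081 to 0.31 for Rps27rt.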
